A study of Homo sapiens with 26 samples.

Results

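NCI-H211 is a human small cell lung cancer cell line that expresses POU2F3, and its POU2F3 knockout at day 4 is described here across genes. The knockout group (sgPOU2F3) held 2 libraries, from cells infected with a lentivirus carrying the guide RNA sgPOU2F3e10.1 or sgPOU2F3e10.2, and the control group (sgNeg) held 1 library from cells infected with the guide sgNeg. Both were harvested 4 days after infection, and parental NCI-H211, 1 library of exponentially growing cells, gave a second baseline. These 3 knockout-experiment libraries are among 26 in the series, which also has the same knockout in NCI-H1048 (day 4), COR-L311 (day 5) and NCI-H526 (day 5), and 13 other parental lines. The authors deposited 1 FPKM value (fragments scaled to transcript length and to the library's mapped fragments) per gene for the 2 POU2F3 guides together, so the spread between the guides is not known and no test within the line was possible.

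POU2F3 is a POU-domain transcription factor that binds octamer DNA and is required for tuft cells, the rare chemosensory cells of the gut and airway epithelium. Tuft cells use taste receptors, a G protein and phospholipase C cascade and the cation channel TRPM5 to sense luminal compounds, and they make acetylcholine, eicosanoids and IL-25. Several genes that lead the rises below are targets of the Hippo pathway, in which the kinases LATS1 and LATS2 hold the coactivators YAP1 and WWTR1 (TAZ) in check and TEAD factors carry them to DNA.

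Of 19128 genes in the table, 12335 (64.5%) had an FPKM of 1 or more in sgPOU2F3 or sgNeg and are described here. The difference for each gene is log2(FPKM + 1) in sgPOU2F3 minus the same in sgNeg, and a gene is called lower or higher where that difference is 1 or more in size. By that rule 596 genes (4.83%) were lower and 846 (6.86%) were higher in sgPOU2F3. The median difference over all 12335 genes was -0.03, with an SD of 0.77 across genes. Just inside the threshold were KIF14 at -1.0004 and PSPN at 1.0007. Just outside it was PALD1, at 3.97 FPKM in sgPOU2F3 and 8.93 FPKM in sgNeg.

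The genes that mark this experiment followed its labels. POU2F3 itself was at 21.3 FPKM in sgPOU2F3, against 307 FPKM in sgNeg and 221 FPKM in parental NCI-H211, a difference of -3.79 from sgNeg. POU2F3 RNA in sgPOU2F3 was thus 6.95% of its sgNeg level, and the RNA level does not say how many alleles were cut or how much protein was left. Of 8 genes below 0.1 FPKM in parental NCI-H211 and at 5 FPKM or more in all 13 other parental lines, 7 stayed below 1 FPKM in sgPOU2F3 as in sgNeg. The eighth, IGFBP2, was at 6.36 FPKM in sgPOU2F3, 0.786 FPKM in sgNeg and 0.0748 FPKM in parental cells. Across genes, both knockout-table columns ranked closest to parental NCI-H211 among the 14 parental lines, with a Spearman correlation of 0.956 for sgPOU2F3 and 0.980 for sgNeg. The steps between low FPKM values correspond to about 23.4 M fragments (M, mega) for sgPOU2F3, 9.66 M for sgNeg and 15.3 M for parental cells. At that depth 1 fragment on a 2000-base transcript is worth 0.0213 FPKM in sgPOU2F3 and 0.0518 FPKM in sgNeg. Genes listed at 0 made up 13.96% of the sgPOU2F3 column, 21.5% of the sgNeg column and 21.97% of the parental column.

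**Figure D1:**
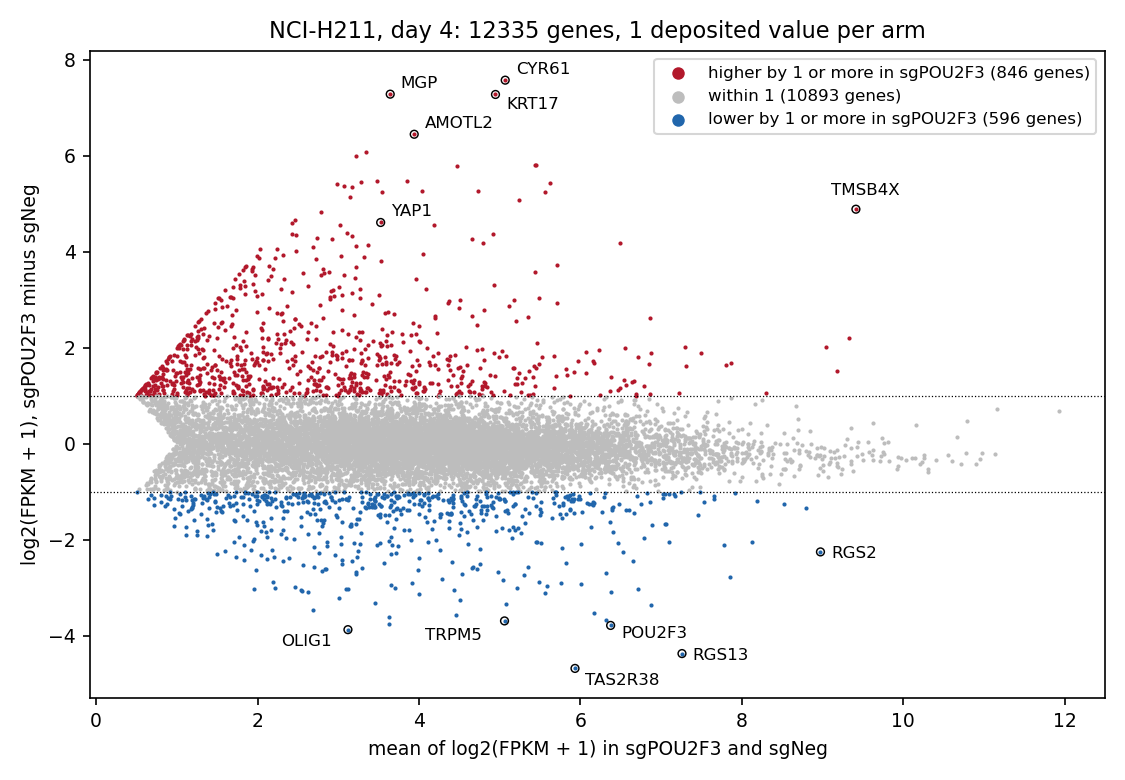
Difference in log2(FPKM + 1), sgPOU2F3 minus sgNeg (y axis), against the mean of log2(FPKM + 1) in the 2 columns (x axis) for 12335 genes of NCI-H211, 1 point per gene, with dotted lines at 1 and -1. The 846 higher genes reach 7.58 (CYR61), while the 596 lower genes reach -4.68 (TAS2R38).

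The falls and the rises differed in form. The 596 lower genes had a median of 6.09 FPKM in sgPOU2F3 and 19.8 FPKM in sgNeg, and 88 of them went below 1 FPKM. The 846 higher genes had a median of 10.6 FPKM in sgPOU2F3 and 1.56 FPKM in sgNeg, and 343 of them were below 1 FPKM in sgNeg, 60 being listed at 0. The rises also reached further, with 261 genes higher by 2 or more and 45 by 4 or more, against 116 and 2 genes lower by as much. These are bulk libraries, so fewer cells of a type and less RNA per cell cannot be told apart.

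Receptors and signalling genes of tuft and taste cells were among the largest falls. TAS2R38, a bitter taste receptor, had the largest, at 11.1 FPKM in sgPOU2F3, 309 FPKM in sgNeg and 108 FPKM in parental cells (-4.68). RGS13, which speeds the shut-off of G proteins, followed at 32.6 FPKM in sgPOU2F3, 696 FPKM in sgNeg and 447 FPKM in parental cells (-4.37). In both genes the knockout value lay far below either baseline, and on the log2 scale the 2 baselines lay closer to each other than to it. Of the 25 largest falls, from -4.68 to -3.02, 14 belong to the tuft cell, taste transduction or eicosanoid lists used here, and 24 were also lower than in parental cells by 1 or more.

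Along the taste cascade the fall ran from receptor to channel. TAS1R3, the shared subunit of the sweet and umami receptors, was at 5.36 FPKM in sgPOU2F3, 74.8 FPKM in sgNeg and 44.6 FPKM in parental cells. TAS2R10, a bitter receptor, was at 2.01 FPKM in sgPOU2F3, 23.5 FPKM in sgNeg and 11.6 FPKM in parental cells. The G protein subunits GNAT3 (gustducin) and GNG13 differed from sgNeg by -1.97 and -2.61, and at 17.0 and 1.88 FPKM in sgPOU2F3 both were also below parental cells. PLCB2, the phospholipase of the cascade, was at 18.8 FPKM in sgPOU2F3, 148 FPKM in sgNeg and 79.8 FPKM in parental cells. TRPM5, the channel that depolarises the cell, was at 8.28 FPKM in sgPOU2F3, 119 FPKM in sgNeg and 110 FPKM in parental cells (-3.69). ITPR3, the calcium channel of the endoplasmic reticulum in the same cascade, went the other way, at 2.57 FPKM in sgPOU2F3, 0.674 FPKM in sgNeg and 0.207 FPKM in parental cells. In all, 9 of the 19 taste genes at the filter were lower and 1, ITPR3, was higher, with a median of -0.83. Against parental cells the median of the same genes was -0.07, with 7 lower and 1 higher, and sgNeg itself exceeded parental cells by a median of 0.65. The remaining bitter receptors that were within 1 of sgNeg, such as TAS2R5 at 8.20 FPKM in sgPOU2F3 and 10.3 FPKM in sgNeg, were near or above their parental level.

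Of 50 tuft cell genes, 42 passed the filter, and 33 of these were lower, none was higher and the median was -2.07, against -0.03 over all genes. The median sgNeg minus parental difference of the same genes was 0.44, and 22 of the 33 were lower than both baselines. Actin-bundling AVIL (advillin) was at 21.5 FPKM in sgPOU2F3, 284 FPKM in sgNeg and 270 FPKM in parental cells. LRMP, a membrane protein of the endoplasmic reticulum, was among the most abundant and kept 87.2 FPKM in sgPOU2F3, against 601 FPKM in sgNeg and 711 FPKM in parental cells. The kinase BMX was at 30.3 FPKM in sgPOU2F3, 201 FPKM in sgNeg and 283 FPKM in parental cells. For these 3 genes the 2 baselines differed by less than 1 on the log2 scale and the knockout value was lower than each by more than 2.

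Several transcription factors of the tuft cell list were lower, but not SOX9. ASCL2, a basic helix-loop-helix factor of intestinal stem cells that is also found in tuft cells, was at 27.5 FPKM in sgPOU2F3, 243 FPKM in sgNeg and 187 FPKM in parental cells. SPIB and GFI1B, both known from blood lineages and tuft cells, were at 3.56 and 2.58 FPKM in sgPOU2F3 and at 34.1 and 18.1 FPKM in sgNeg. HMX2 and HMX3, homeobox factors, were at 0.240 and 0.307 FPKM in sgPOU2F3 and at 2.43 and 1.77 FPKM in sgNeg, low throughout. SOX9, an epithelial progenitor factor, was within the threshold at -0.69 and at 29.2 FPKM in sgPOU2F3 had nearly its parental level of 30.0 FPKM. The kinase gene DCLK1, the usual tuft cell marker of the mouse gut, was near the filter throughout, at 0.561 FPKM in sgPOU2F3 and 1.31 FPKM in sgNeg.

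C11orf53 (POU2AF2), a coactivator that binds POU2F3, was at 35.5 FPKM in sgPOU2F3, 373 FPKM in sgNeg and 273 FPKM in parental cells (-3.36). Its neighbours in the coactivator cluster did not follow. COLCA2 (POU2AF3) was at 9.48 FPKM in sgPOU2F3, 6.83 FPKM in sgNeg and 1.92 FPKM in parental cells, and COLCA1 at 1.67 FPKM in sgPOU2F3 and 0.349 FPKM in sgNeg, both within 1 of sgNeg. POU2F1, the ubiquitous octamer factor, stood at 4.99 FPKM in sgPOU2F3 and 5.04 FPKM in sgNeg, and POU2F2 was below 1 FPKM in both.

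Enzymes and effectors of the tuft cell divided. PTGS2, the inducible cyclooxygenase, was at 2.46 FPKM in sgPOU2F3, 33.5 FPKM in sgNeg and 14.9 FPKM in parental cells. Its constitutive relative PTGS1 was at 1.22 FPKM in sgPOU2F3 and 7.51 FPKM in sgNeg, and PLA2G4A, which releases their substrate arachidonic acid, at 2.65 FPKM in sgPOU2F3 and 22.9 FPKM in sgNeg. The general enzymes of the path, PTGES2 (-0.16), PTGES3 (-0.01) and CBR1 (-0.06), hardly differed, and of 10 eicosanoid genes at the filter 4 were lower and none higher. The type 2 effector IL25 was listed at 0 in both columns and ALOX5AP was below 1 FPKM in both. Choline acetyltransferase, CHAT, was at 1.02 FPKM in sgPOU2F3, 15.96 FPKM in sgNeg and 10.6 FPKM in parental cells. CD79B and CD8B, better known as surface proteins of B and T lymphocytes, were at 1.03 and 12.2 FPKM in sgPOU2F3, at 15.8 and 104 FPKM in sgNeg and at 8.27 and 35.6 FPKM in parental cells. PTPRC, CD3D, CD3E and MS4A1, which define blood cells, were below 0.1 FPKM in both NCI-H211 columns. Of the 25 blood cell genes 20 were below 1 FPKM in both columns. Of the 5 others 1 (20%) was higher, by 2.22, and was also higher than in parental cells, and none was lower. Over all genes 6.86% were higher.

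The rest of the 25 largest falls lay outside the tuft cell, taste and eicosanoid lists. The oligodendrocyte factors OLIG1 and OLIG2 were at 1.27 and 2.36 FPKM in sgPOU2F3, 32.3 and 44.6 FPKM in sgNeg, and 14.9 and 31.9 FPKM in parental cells. BIK, a BH3-only activator of cell death, was at 2.55 FPKM in sgPOU2F3, 42.0 FPKM in sgNeg and 28.9 FPKM in parental cells. Below the 25 largest, at -2.64, FOXI1, the factor of ionocytes, was at 5.38 FPKM in sgPOU2F3, 38.8 FPKM in sgNeg and 52.3 FPKM in parental cells. The neuropeptide NMU was at 35.8 FPKM in sgPOU2F3, 297 FPKM in sgNeg and 871 FPKM in parental cells, and was chosen after its values were seen.

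**Figure D2:**
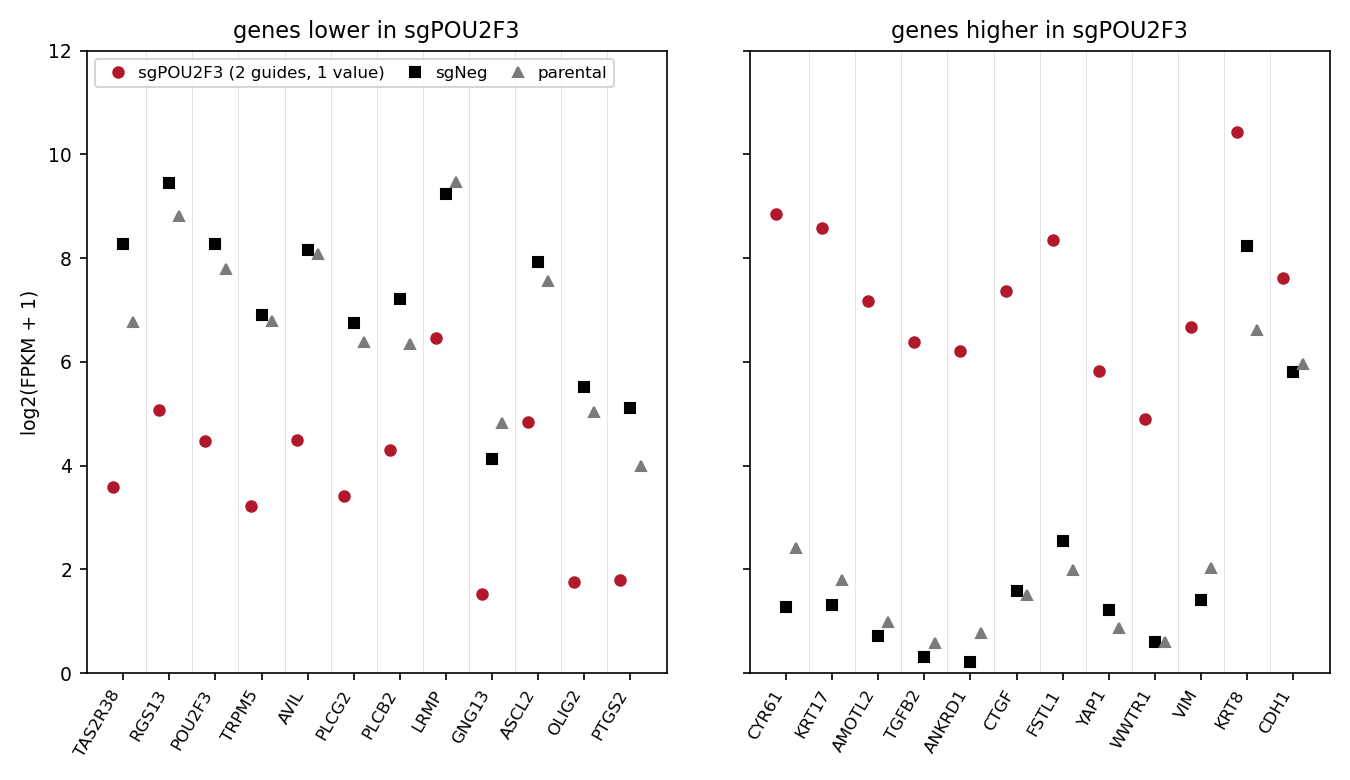
Levels as log2(FPKM + 1) (y axis) of 12 lower genes (left panel) and 12 higher genes (right panel) in NCI-H211, with sgPOU2F3 (circles, 2 guides in 1 value), sgNeg (squares) and parental cells (triangles) from left to right within each gene. In each of the 24 genes sgNeg and parental cells lie on the same side of sgPOU2F3.

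Targets of YAP1 and TEAD were among the largest rises. Of the 25 largest, from 4.66 to 7.58, 7 belong to the Hippo core or YAP target lists, and all 25 were higher than in parental cells by 1 or more. CYR61, a matricellular protein, stood at 463 FPKM in sgPOU2F3, against 1.43 FPKM in sgNeg and 4.30 FPKM in parental cells (7.58), and its relative CTGF at 164 FPKM in sgPOU2F3, 1.98 FPKM in sgNeg and 1.85 FPKM in parental cells. AMOTL2, an angiomotin family brake on YAP1 that is itself a target, was at 143 FPKM in sgPOU2F3, 0.642 FPKM in sgNeg and 0.983 FPKM in parental cells. ANKRD1, a muscle ankyrin repeat protein, was at 73.4 FPKM in sgPOU2F3, 0.163 FPKM in sgNeg and 0.701 FPKM in parental cells. These genes were near the floor in both baselines and among the well-expressed genes of the knockout. Of 21 YAP target genes at the filter, 17 were higher and none was lower, with a median of 2.15, and all 17 were also higher than in parental cells by 1 or more. The exceptions were AMOTL1 (-0.52), ASAP1 (0.80), ARHGEF17 (0.80) and PTPN14 (0.96).

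Within the Hippo core, the coactivators and several of their inhibitors were higher while the kinases were split. YAP1 was at 56.0 FPKM in sgPOU2F3, 1.33 FPKM in sgNeg and 0.824 FPKM in parental cells (4.61), and WWTR1 at 28.7 FPKM in sgPOU2F3, 0.509 FPKM in sgNeg and 0.519 FPKM in parental cells (4.30). TEAD1 was higher at 61.8 FPKM in sgPOU2F3 and 21.5 FPKM in sgNeg, TEAD3 (0.74) and TEAD4 (0.84) were within 1, and TEAD2, the most abundant in sgNeg, was at 67.9 FPKM in sgPOU2F3 and 99.2 FPKM in sgNeg. LATS2, an inhibitory kinase and a YAP target, was at 5.85 FPKM in sgPOU2F3 and 0.755 FPKM in sgNeg, whereas LATS1 (0.06), STK4 (-0.10) and STK3 (0.47) were within 1. AJUBA, which restrains LATS kinases, was at 39.3 FPKM in sgPOU2F3, 0.999 FPKM in sgNeg and 0.363 FPKM in parental cells. VGLL1, a TEAD cofactor, was listed at 0 in sgNeg, at 0.0586 FPKM in parental cells and at 8.19 FPKM in sgPOU2F3. In all, 11 of 24 core genes were higher and none was lower, with a median of 0.90.

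Keratins and junction genes were higher in part. KRT17, a keratin of basal and wounded epithelium, was at 384 FPKM in sgPOU2F3, 1.48 FPKM in sgNeg and 2.46 FPKM in parental cells (7.28). KRT16, with which it shares much of its sequence, was at 10.6 FPKM in sgPOU2F3 and listed at 0 in both baselines. The basal identity genes TP63, KRT5 and KRT14 were below 1 FPKM in both columns, TP63 at 0.67 FPKM in sgPOU2F3 and 0.088 FPKM in sgNeg, so 8 of 13 basal genes at the filter were higher without them. The simple-epithelial pair KRT8 and KRT18 was abundant throughout, at 1375 and 1064 FPKM in sgPOU2F3, 300 and 261 FPKM in sgNeg, and 96.9 and 96.7 FPKM in parental cells, so that sgNeg was itself more than 1 above parental cells. E-cadherin, CDH1, was at 196 FPKM in sgPOU2F3, 55.3 FPKM in sgNeg and 61.5 FPKM in parental cells. The adhesion molecule EPCAM (-0.09) and the factor GRHL2 (0.51), both carcinoma markers, were within 1. Of 26 simple-epithelial genes 12 were higher and 1, EHF, was lower.

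Most mesenchymal genes at the filter were also higher. VIM, the intermediate filament of mesenchymal cells, was at 101 FPKM in sgPOU2F3, 1.64 FPKM in sgNeg and 3.09 FPKM in parental cells. FN1 (fibronectin) was at 32.3 FPKM in sgPOU2F3 and 0.722 FPKM in sgNeg, and the repressor SNAI2 at 10.7 FPKM in sgPOU2F3 and 0.656 FPKM in sgNeg. TWIST1, another repressor of the epithelial state, was lower, at 19.1 FPKM in sgPOU2F3 and 71.9 FPKM in sgNeg, but at 18.7 FPKM in parental cells. Over the list, 12 of 17 genes were higher and 1, TWIST1, was lower (median 1.73). Of 20 fibroblast genes 13 were below 1 FPKM in both columns, among them COL1A2, PDGFRB and ACTA2, and of the 7 others 4 were higher and 2, DCN and PDGFRA, were lower. The list summed to 69.5 FPKM in sgPOU2F3, 16.04 FPKM in sgNeg and 7.43 FPKM in parental cells, and its part in the mesenchymal and matrix rises was not tested. Much of the sgPOU2F3 sum came from TAGLN, an actin-binding protein, at 50.3 FPKM, and LUM (lumican) at 12.3 FPKM. The 15 endothelial genes summed to 4.53 FPKM in sgPOU2F3 and 3.56 FPKM in sgNeg, and the 25 blood cell genes to 13.96 FPKM in sgPOU2F3 and 9.21 FPKM in sgNeg.

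Many genes of the cytoskeleton, membrane and matrix were higher. Of 34 actin and contractile genes 17 were higher and 2, AVIL and FHL1, were lower (median 1.05), with TAGLN, the calponin CNN1 and the myosin light chain MYL9 at 3.44, 3.03 and 3.002. TMSB4X, an actin-monomer binding peptide, was the most abundant of the large rises, at 3712 FPKM in sgPOU2F3, 124 FPKM in sgNeg and 80.4 FPKM in parental cells. TMSB4X has near-identical copies, so its value depends on how shared reads were assigned. Caveolar CAV1 was at 191 FPKM in sgPOU2F3, 13.4 FPKM in sgNeg and 8.77 FPKM in parental cells, and PTRF (cavin) at 38.5 FPKM in sgPOU2F3 and 0.672 FPKM in sgNeg. ANXA1, the most abundant annexin in sgNeg, was lower at 125 FPKM in sgPOU2F3, 253 FPKM in sgNeg and 414 FPKM in parental cells, while ANXA2 was higher at 101 FPKM in sgPOU2F3 and 11.8 FPKM in sgNeg. In secreted matrix and proteases 21 of 32 genes were higher and none lower (median 1.43), led by PRSS23, FSTL1 and THBS1 at 324, 326 and 73.4 FPKM in sgPOU2F3 and 4.77, 4.83 and 0.682 FPKM in sgNeg. MGP, an inhibitor of calcification, was at 155 FPKM in sgPOU2F3, 0.595 FPKM in parental cells and listed at 0 in sgNeg. Of 27 integrin and basement membrane genes 9 were higher, among them the laminin chain LAMB3 (3.58) and the integrin ITGA3 (3.39), and 1, NID1, was lower.

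In growth factor pathways some ligands, receptors and feedback genes were higher and others lower. TGFB2 was at 82.5 FPKM in sgPOU2F3, 0.237 FPKM in sgNeg and 0.489 FPKM in parental cells, its receptor TGFBR2 at 16.8 FPKM in sgPOU2F3 and 0.217 FPKM in sgNeg, and the feedback inhibitor SMAD7 at 28.3 FPKM in sgPOU2F3 and 2.90 FPKM in sgNeg. BMP4 was higher, at 51.6 FPKM in sgPOU2F3 and 0.495 FPKM in sgNeg, and BMP2 lower, at 4.93 FPKM in sgPOU2F3 and 27.9 FPKM in sgNeg. The TGF-beta and BMP list as a whole had 9 of 31 genes higher and 1, BMP2, lower. Among IGF genes 9 of 15 were higher and none lower (median 1.71), and IGFBP3 and IGFBP4, which bind IGFs outside the cell, were at 324 and 292 FPKM in sgPOU2F3 and 6.46 and 6.67 FPKM in sgNeg. The EGF-family ligand HBEGF was at 87.4 FPKM in sgPOU2F3, 2.77 FPKM in sgNeg and 2.69 FPKM in parental cells, and the ERBB family co-receptor ERBB2 at 50.7 FPKM in sgPOU2F3 and 12.4 FPKM in sgNeg. The receptor KIT was lower, at 10.8 FPKM in sgPOU2F3, 49.0 FPKM in sgNeg and 19.5 FPKM in parental cells. The AP-1 members JUN, FOSL1 and FOSL2 were at 109, 25.8 and 117 FPKM in sgPOU2F3, 4.74, 0.561 and 5.53 FPKM in sgNeg, and 8.52, 0.443 and 8.63 FPKM in parental cells. Of 22 AP-1 and immediate early genes 9 were higher and 1, KLF4, was lower.

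Notch genes were called in both directions, among ligands and among HES factors alike. The ligands DLL3 and JAG2 were lower, at 4.60 and 13.7 FPKM in sgPOU2F3 and 22.3 and 43.3 FPKM in sgNeg, whereas the ligand JAG1 was higher at 12.1 FPKM in sgPOU2F3 and 2.67 FPKM in sgNeg. The target HES1 was at 37.7 FPKM in sgPOU2F3, 1.23 FPKM in sgNeg and 0.471 FPKM in parental cells, and HES6, a HES1 antagonist, at 41.2 FPKM in sgPOU2F3, 201 FPKM in sgNeg and 122 FPKM in parental cells. HES2, another member of that family, was lower, at 9.65 FPKM in sgPOU2F3, 63.8 FPKM in sgNeg and 41.8 FPKM in parental cells (-2.60). In all 7 of 23 Notch genes were lower and 3 higher than in sgNeg, and 5 were lower and 6 higher than in parental cells. Of 29 neuroendocrine genes 15 were below 1 FPKM in both columns, including CHGA and SYP, and of the 14 others DLL3, NCAM1 and INSM1 were lower and SNAP25 higher.

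Of 44 cell cycle genes, all of which passed the filter, 12 were lower, none was higher and 32 were within 1, with a median of -0.77, and 10 of the 12 were also lower than in parental cells by 1 or more. CDK1, the mitotic kinase, was at 59.0 FPKM in sgPOU2F3, 155 FPKM in sgNeg and 131 FPKM in parental cells, and TOP2A at 91.1 FPKM in sgPOU2F3, 190 FPKM in sgNeg and 223 FPKM in parental cells. The mitotic genes made up the called members, while replication genes such as MCM5 (-0.04), MCM6 (-0.04) and CDC6 (0.19) hardly differed. The CDK4 and CDK6 inhibitor CDKN2B was at 15.5 FPKM in sgPOU2F3, 0.525 FPKM in sgNeg and 0.420 FPKM in parental cells. CDKN1A, the inhibitor induced by p53, was within 1 at 7.31 FPKM in sgPOU2F3 and 4.25 FPKM in sgNeg. Of 24 p53 target genes 3 (12.5%) were higher and none was lower (median 0.18). None of 28 ribosome biogenesis genes and none of 3 endothelial genes at the filter was called in either direction. Among apoptosis regulators BIK and BCL2 (8.33%) were lower and the BH3-only gene BMF (4.17%) was higher, 21 of 24 being within 1. Over all genes 4.83% were lower and 6.86% were higher, so the apoptosis shares lay near those of all genes.

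The other lists are given by their counts, to be read against the 4.83% of all genes that were lower and the 6.86% that were higher. Of 23 cytokine genes 12 were higher, led by LIF at 24.0 FPKM in sgPOU2F3 and 0.740 FPKM in sgNeg, and 3 were lower, the receptors IL6R, IL13RA1 and IL17RB. Of 19 interferon genes 5 were higher, mainly IFITM3 (4.19), IFITM1 (3.44) and IFITM2 (2.63), which are near-identical in sequence and share reads, whereas ISG15 (-0.71) was within 1. Of 24 NRF2 and detoxification genes 5 were higher, 4 of them aldo-keto reductases such as AKR1C3, at 95.1 FPKM in sgPOU2F3 and 25.9 FPKM in sgNeg, and 1, ALDH1A1, was lower. Of 29 stress response genes 4 were lower, the amino acid enzymes ASNS, PSAT1 and MTHFD2 and the stress gene CHAC1, and 4 were higher. Against parental cells none of the 29 was lower and 10 were higher. Of 30 hypoxia genes 4 were higher, led by the peptide hormone ADM at 137 FPKM in sgPOU2F3 and 5.62 FPKM in sgNeg. Of 25 Wnt genes 7 were higher, among them the receptors FZD7 (2.62) and LGR4 (2.26), and none was lower. Of 12 RGS genes 5 were lower and none higher, and of 12 neural and glial factors 3 were lower and 3, the ID proteins ID1, ID2 and ID4, were higher. The ERBB, MET and ERK feedback list had 11 of 22 genes higher and 2 lower, the caveolar, annexin and S100 list 13 of 22 higher and 2 lower, and the CDK inhibitor and D cyclin list 1 of 14 higher and 2 lower. Of 18 antigen presentation genes 2 (11.1%), HLA-B and HLA-E, were higher, of 13 lung and foregut factors SIX2 was higher and FOXI1 and EYA2 were lower, and of 30 cholesterol and lipid genes 2 (6.67%) were lower, while against parental cells none was lower and 8 were higher.

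**Figure D3:**
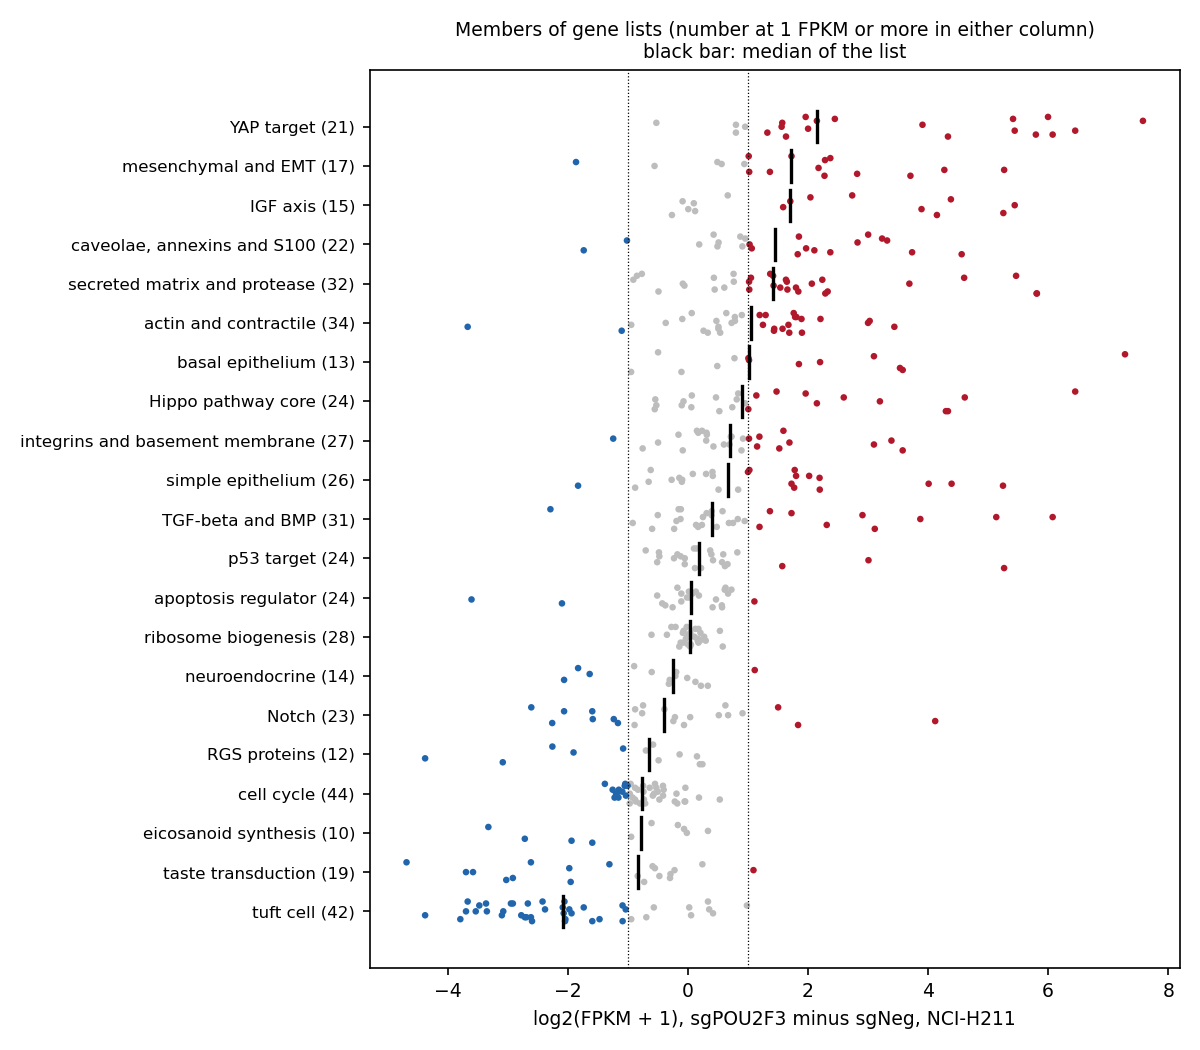
Difference in log2(FPKM + 1), sgPOU2F3 minus sgNeg (x axis), of the members of 21 gene lists at 1 FPKM or more in either NCI-H211 column, 1 point per gene, red where higher by 1 or more, blue where lower by 1 or more and grey otherwise, with the black bar at the list median. The medians run from 2.15 for YAP targets to -2.07 for tuft cell genes.

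Falls and rises differed in how many held against the second baseline. Both comparisons use the same sgPOU2F3 column, and the parental library stands in another table. Against parental cells 719 genes (5.91%) were lower and 1311 (10.8%) higher, among genes at 1 FPKM or more in either of those columns. Of the 596 lower genes, 267 (2.16% of all genes) were also lower than parental cells by 1 or more, which is 44.8% of them. Of the 846 higher genes, 765 (6.2% of all genes) were also higher than parental cells, which is 90.4%. Against sgNeg, 116 falls and 261 rises were 2 or more in size, so more rises stood well beyond the threshold. Over all genes sgNeg exceeded parental cells by a median of 0.11. Both bear on these shares, and their part in them was not tested. The sgNeg library was itself lower than parental cells for 222 genes (1.8%) and higher for 448 (3.63%), and 132 of the 596 falls are genes for which sgNeg exceeded parental cells by 1 or more. IL13RA1, the receptor subunit through which tuft cells respond to IL-13, was at 42.0 FPKM in sgPOU2F3, 179 FPKM in sgNeg and 39.9 FPKM in parental cells. CRYM was at 2.99 FPKM in sgPOU2F3, 23.1 FPKM in sgNeg and 1.27 FPKM in parental cells, and the trefoil peptide TFF3 at 6.40 FPKM in sgPOU2F3, 69.2 FPKM in sgNeg and 15.96 FPKM in parental cells. For genes such as IL13RA1 the fall against sgNeg ends at the parental level, and the infection and the table, which both separate sgNeg from parental cells, cannot be told apart. The labels give 2 possible media for NCI-H211, RPMI with serum or HITES, and do not say whether the parental and the infected cells shared one, which bears on every comparison with parental cells. The fatty acid desaturase SCD and its regulator SREBF1 were lower than sgNeg (-1.23 and -1.02) and higher than parental cells (1.23 and 1.18).

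**Figure D4:**
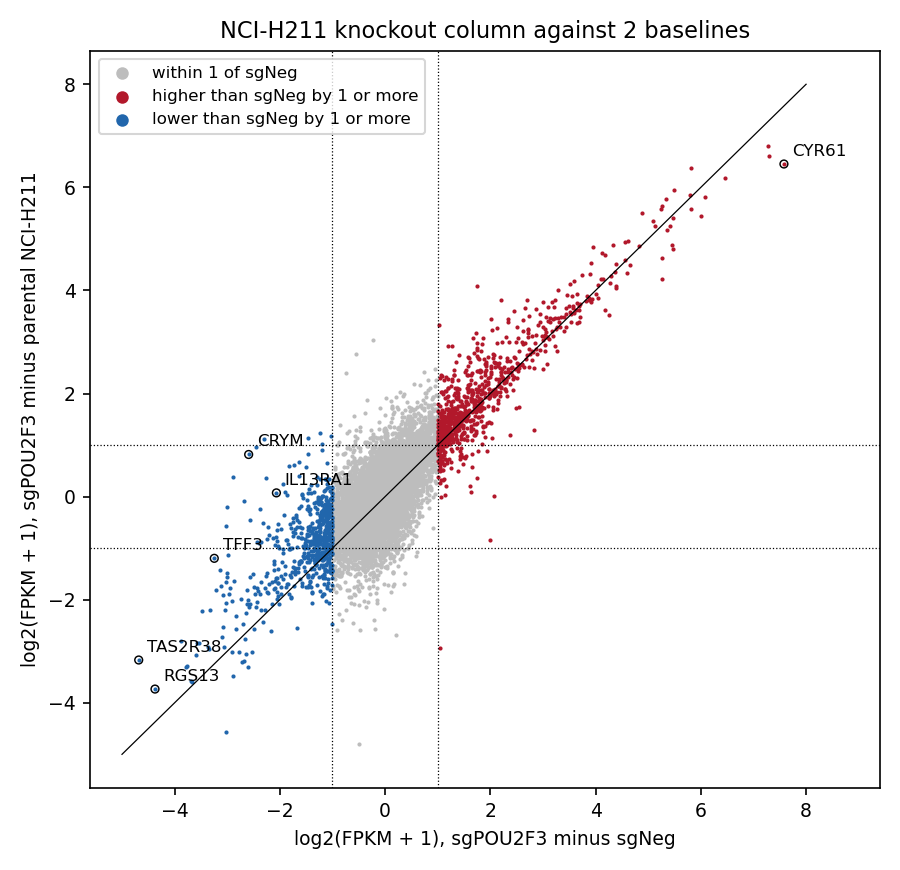
Difference of sgPOU2F3 from parental NCI-H211 (y axis) against its difference from sgNeg (x axis), both in log2(FPKM + 1), 1 point per gene, with dotted lines at 1 and -1 and the diagonal where the 2 baselines are equal. Most higher genes lie near the diagonal above 1 on both axes, while many lower genes, such as IL13RA1, lie above the diagonal with little difference from parental cells.

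The parental panel gives the standing of these genes in other lines, as a description with no test. NCI-H211 had the highest FPKM of 14 parental lines for 22.7% of the 595 lower genes found there, against 3.78% of the 846 higher genes and 10.9% of all 12334 genes. For the higher genes the line most often highest of the 3 lines counted was DMS114, with 13.4%, followed by NCI-H1048 with 10.2%, against 11.5% and 5.03% of all genes.

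Gene order was described without a test. Taking gene order from RefSeq (GRCh38.p14, while the tables use hg19), 31.9% of 593 lower genes had an adjacent gene among the members that was also lower, and 9.18% of all 12272 placed genes had a lower neighbour. Among 841 higher genes 31.5% had a higher neighbour, against 12.8% of all genes. Many such pairs are duplicated genes or overlap, and the tables do not say how strand or shared reads were handled. On chromosome 1, RGS21, RGS13 and RGS2 differed by -3.08, -4.37 and -2.25 in a row, RGS2 remaining abundant at 229 FPKM in sgPOU2F3 and 1098 FPKM in sgNeg, and PTGS2 and PLA2G4A lay side by side. On chromosome 10, CHAT and the vesicular acetylcholine transporter SLC18A3, which share 1 locus, differed by -3.07 and -2.29. On chromosome 11, KCNJ11 and ABCC8, the pore and regulatory subunit of the ATP-sensitive potassium channel, differed by -2.57 and -2.54. On chromosome 19 the kallikreins KLK11, KLK12 and KLK13 differed by -3.0, -2.44 and -2.99, and on chromosome 21 OLIG2 and OLIG1 by -3.76 and -3.87. Among rises, MGP, ERP27, ARHGDIB and RERG on chromosome 12 differed by 7.29, 5.34, 3.63 and 2.15, ARHGDIB and RERG being listed at 0 in both baselines, and CLDN9, CLDN6 and TNFRSF12A on chromosome 16 by 3.03, 4.05 and 5.09. CAV2 and CAV1 on chromosome 7 differed by 3.24 and 3.74. These runs were chosen after their values were seen, as pairs of adjacent genes that both differ by 2 or more.

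Promoter letters were counted in RefSeq windows from 250 bases before to 50 after the start, for the 10129 members with an entry, on both strands. The octamer ATGCAAAT, the element bound by POU2F factors, was in 4.45% of 449 lower genes and 6.58% of the 76 lower by 2 or more, against 2.10% of 668 higher genes, 1.46% of all members and 1.80% of all 27305 promoters. GGAATG, the core letters of the TEAD element, was in 15.0% of the higher genes and 17.5% of the 194 higher by 2 or more, against 9.35% of lower genes, 10.7% of all members and 14.05% of all promoters. The AP-1 element TGANTCA was in 7.63% of higher genes, 4.68% of lower genes, 4.28% of all members and 7.76% of all promoters. A match describes letters only, and no test was run on these shares.

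Of the 50 genes with the largest falls and rises, 33 had an entry. Among the 25 largest falls 15 had one, and only 1 of these, TAS2R10, held the octamer (6.67%). RGS13, TAS2R38, AVIL and PLCG2 were among those without it. Among the 25 largest rises 18 had an entry, and 6 of these held TEAD letters (33.3%). The sequences below were picked for their matches and do not stand for the rest. Shown first are 3 YAP targets with the most TEAD letters among the largest rises, and then 3 genes lower by 2 or more that hold the octamer, APOBEC1, TAS2R10 and HES6, picked after their values were seen. All are RefSeq sequence of GRCh38.p14, 5′ to 3′ along the gene, with the matches to the TEAD, AP-1 and octamer letters above, on either strand, in capitals.
CTGF (chr6:131951323-131951622, minus strand): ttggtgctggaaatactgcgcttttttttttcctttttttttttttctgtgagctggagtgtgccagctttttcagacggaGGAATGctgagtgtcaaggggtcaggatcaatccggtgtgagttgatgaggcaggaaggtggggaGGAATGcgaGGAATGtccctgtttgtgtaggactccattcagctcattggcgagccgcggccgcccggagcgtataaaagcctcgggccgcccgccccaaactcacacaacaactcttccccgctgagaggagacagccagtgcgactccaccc
ANKRD1 (chr10:90921038-90921337, minus strand): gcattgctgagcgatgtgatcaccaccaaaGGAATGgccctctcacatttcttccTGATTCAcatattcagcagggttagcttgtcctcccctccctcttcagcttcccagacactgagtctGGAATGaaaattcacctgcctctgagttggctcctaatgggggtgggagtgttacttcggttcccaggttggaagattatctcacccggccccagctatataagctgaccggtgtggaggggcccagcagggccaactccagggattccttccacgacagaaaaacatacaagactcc
NUAK2 (chr1:205321696-205321995, minus strand): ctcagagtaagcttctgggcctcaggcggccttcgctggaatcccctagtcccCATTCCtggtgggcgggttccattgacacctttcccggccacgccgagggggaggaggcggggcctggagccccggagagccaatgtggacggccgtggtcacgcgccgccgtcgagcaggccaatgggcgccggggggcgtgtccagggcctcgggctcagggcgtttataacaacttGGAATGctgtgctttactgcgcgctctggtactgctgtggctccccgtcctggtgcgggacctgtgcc
APOBEC1 (chr12:7665859-7666158, minus strand): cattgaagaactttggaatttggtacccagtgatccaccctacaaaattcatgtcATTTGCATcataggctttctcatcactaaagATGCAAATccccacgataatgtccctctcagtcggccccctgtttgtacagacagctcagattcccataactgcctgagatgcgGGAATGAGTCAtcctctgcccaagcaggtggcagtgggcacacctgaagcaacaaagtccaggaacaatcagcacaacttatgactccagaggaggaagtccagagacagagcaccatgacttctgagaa
TAS2R10 (chr12:10826309-10826608, minus strand): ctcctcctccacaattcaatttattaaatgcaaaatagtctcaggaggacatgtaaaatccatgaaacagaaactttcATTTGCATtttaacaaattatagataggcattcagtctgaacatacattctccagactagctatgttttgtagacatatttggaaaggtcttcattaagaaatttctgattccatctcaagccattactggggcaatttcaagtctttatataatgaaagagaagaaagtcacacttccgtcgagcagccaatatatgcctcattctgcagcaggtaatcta
HES6 (chr2:238239989-238240288, minus strand): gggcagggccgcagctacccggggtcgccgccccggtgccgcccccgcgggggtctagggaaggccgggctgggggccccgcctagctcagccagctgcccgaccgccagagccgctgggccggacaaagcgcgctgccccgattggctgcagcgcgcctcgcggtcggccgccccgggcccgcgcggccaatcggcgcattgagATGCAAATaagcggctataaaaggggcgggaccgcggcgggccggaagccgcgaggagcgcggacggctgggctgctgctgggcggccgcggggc
CTGF held 3 TEAD matches, ANKRD1 held 2 and 1 AP-1 match, and NUAK2 held 2 TEAD matches. APOBEC1 held 2 octamers and a TEAD match that overlaps an AP-1 match, and TAS2R10 and HES6 held 1 octamer each. NUAK2, a stress kinase, was at 50.6 FPKM in sgPOU2F3, 0.208 FPKM in sgNeg and 0.347 FPKM in parental cells. The RNA-editing enzyme APOBEC1 was at 5.12 FPKM in sgPOU2F3, 24.0 FPKM in sgNeg and 18.5 FPKM in parental cells, also lower than both baselines.

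NCI-H211 was then set against the 3 other knockout lines. By size, sgPOU2F3 was lower than sgNeg for 1.03% and higher for 1.2% of 12460 genes in NCI-H1048, lower for 259 (2.12%) and higher for 522 (4.28%) in COR-L311, and lower for 62 (0.496%) and higher for 256 (2.05%) in NCI-H526. Of the 596 genes lower in NCI-H211, 21 were also lower and 8 higher in NCI-H526, 48 lower and 33 higher in COR-L311, and 44 lower and 6 higher in NCI-H1048. Of the 846 higher genes 65 were also higher and 6 lower in NCI-H526, 66 higher and 16 lower in COR-L311, and 70 higher and 10 lower in NCI-H1048. POU2F3 RNA itself differed by -3.79 in NCI-H211, against -1.29 in NCI-H526, -0.31 in COR-L311 and -1.69 in NCI-H1048. The target RNA thus fell less in the other lines, and the part of this in the differences between lines was not tested. Tuft cell genes had a median difference of -2.07 in NCI-H211, against -0.68 in NCI-H526, -0.68 in COR-L311 and -0.66 in NCI-H1048. YAP targets had a median of 2.15 in NCI-H211, against 0.04 in NCI-H526, 0.07 in COR-L311 and 0.42 in NCI-H1048. These medians take the members at the filter in NCI-H211, with no filter in the other lines. Of the YAP targets, ANKRD1 and CYR61 were below 1 FPKM in every column of COR-L311 and NCI-H526, so neither rose by 1 or more there. In NCI-H211 they rose from 0.163 and 1.43 FPKM in sgNeg to 73.4 and 463 FPKM in sgPOU2F3. AJUBA was above 1 FPKM in every column of the other lines.

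The difference between lines was tested with limma on the 8 knockout-table columns, for 13710 genes, with the single NCI-H211 difference assumed to vary like those of the other lines. That difference has no replicate of its own, so the p-values set 1 value against the spread of the 3 other lines and do not show a response particular to NCI-H211. The calls also depended on which lines were in the fit, since without NCI-H526 no gene passed, and without COR-L311 169 were lower and 245 higher. At a Benjamini-Hochberg adjusted p below 0.05, the knockout difference in NCI-H211 was lower than the mean of the 3 other lines for 21 genes (0.153%) and higher for 66 (0.481%). At an unadjusted p below 0.05 there were 855 lower and 929 higher genes. Of the 21 lower calls 3, TAS2R10, TAS2R42 and FAM43B, were below 1 FPKM in every column of the other lines, and so were 2 of the 66 higher calls, MYL9 and KISS1. They passed the filter through NCI-H211 alone, and their terms are values with no test. NHS, TMPRSS11E, KRT16, CAV1, SAMD4A, TGFBR2, ERP27 and TGFB2, among the higher calls, reached 1 FPKM in only 1 column of the other lines. They needed a NCI-H211 column to pass the filter of 2 columns, so their terms too are values with no test. FAM43B, KISS1, NHS, TMPRSS11E and SAMD4A were named after their values were seen. In 10 of the 21 at least 1 other line had an sgNeg level below 1 FPKM, which leaves little room to fall. TAS2R38, 1 of those 10, had the largest lower term, -4.82, with knockout differences of -4.68 in NCI-H211, against 0.34 in NCI-H526, 0.06 in COR-L311 and 0 in NCI-H1048. It was listed at 0 in both NCI-H1048 columns and did not pass 1.97 FPKM in either column of COR-L311 or NCI-H526. The factor ASCL2, at 1 FPKM or more in all columns, differed by -2.75 (SE 0.24, limma adjusted p = 0.034) and BIK by -3.54 (SE 0.39, limma adjusted p = 0.043). Among the 66 higher calls, 41 had at least 1 other line with an sgNeg level below 1 FPKM. CYR61, 1 of these, had the largest higher term, 7.30. Its differences were 7.58 in NCI-H211, against -0.15 in NCI-H526, 0.06 in COR-L311 and 0.93 in NCI-H1048. It was below 1 FPKM in both columns of COR-L311 and of NCI-H526. In NCI-H1048 CYR61 was abundant already in sgNeg, at 486 FPKM in sgPOU2F3 and 254 FPKM in sgNeg. ANKRD1 (5.85), YAP1 (4.41) and WWTR1 (4.04) were also among the 66, and each reached 1 FPKM in only 2 columns of the other lines. The ligand HBEGF differed by 4.55 in NCI-H211, against -1.46 in NCI-H526, -1.54 in COR-L311 and -0.07 in NCI-H1048. By list, 2 of 48 tuft cell genes were called lower, 5 of 21 YAP target genes and 4 of 32 TGF-beta and BMP genes higher, and none of 44 cell cycle genes either way. The YAP target count includes TGFB2, and the TGF-beta and BMP count includes TGFB2 and TGFBR2, whose terms are values with no test. NCI-H1048 was harvested on day 4 like NCI-H211, and COR-L311 and NCI-H526 on day 5, while its medium was HITES and that of the other lines is given as either of 2. The NCI-H1048 differences of BMP4, TAS2R38 and CYR61 were 0.13, 0 and 0.93, against 5.14, -4.68 and 7.58 in NCI-H211.

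**Figure D5:**
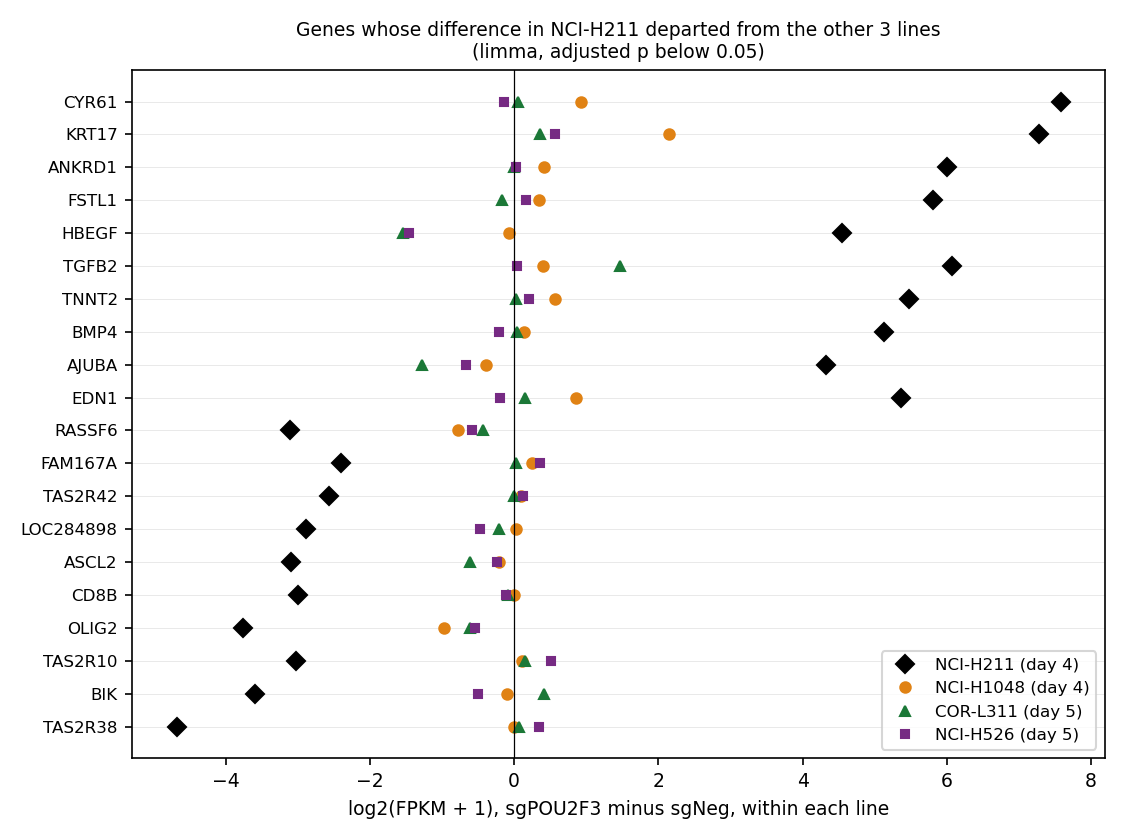
Knockout difference in log2(FPKM + 1), sgPOU2F3 minus sgNeg within each line (x axis), for the 10 genes with the largest lower and the 10 with the largest higher difference between NCI-H211 (diamonds) and the 3 other lines (limma, adjusted p below 0.05). The NCI-H211 points lie between -4.68 and -2.40 for the lower genes and between 4.33 and 7.58 for the higher genes. They lie apart from the other 3 lines, as the genes were picked for that difference. In the other lines TAS2R10 and TAS2R42 were below 1 FPKM throughout, and TGFB2 reached 1 FPKM in only 1 column.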

How the data were processed

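RNA was measured by polyA RNA-seq (TruSeq v2). The authors deposited FPKM values, 1 table per knockout line with 1 sgPOU2F3 column for both guides and 1 sgNeg column, and 1 table of 14 parental lines, which the labels call RPKM. Per the submitters' processing notes, TopHat2, Cufflinks, Cuffdiff and hg19 were used. Versions, annotation, scaling, strand handling and how the guides were combined are not given in the sources used here. Values were taken as log2(FPKM + 1), with a pseudocount of 1, for genes at 1 FPKM or more in either column, and genes were counted by a difference of 1 or more, with no test within the line. The difference between lines was fitted with a variance trend (limma 3.58.1, R 4.3.3) on 8 columns with terms for line, knockout and knockout in NCI-H211, 2 residual degrees of freedom and genes at 1 FPKM or more in at least 2 columns. Its p-values measure only the spread between lines. The method was tried on simulated data in which NCI-H211 was given the spread of the other lines. That trial could not test whether NCI-H211 varies as they do. Depth was estimated from the steps between low values of genes with 1 GENCODE transcript of at least 1000 bases, so it is approximate. The members and the 38 gene lists were chosen with earlier results of these data known. Named genes are POU2F3, RGS13, TAS2R38, CYR61 and KRT17, the 25 largest falls and rises, up to 6 members per list with the largest difference and its defining members, and the 10 largest called terms per direction between lines. Others are said to be chosen after their values were seen. RefSeq (GRCh38.p14) gave gene order for 12272 of 12335 members, matched by symbol, and promoters for 10129. Alternatives were other pseudocounts, filters, scalings and baselines, and leaving out each other line.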

Additional observations from a re-analysis of the deposited data

Results flagged for a closer look

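For 20 genes the knockout difference in NCI-H211 departed from the mean of the 3 other lines by a test of that difference itself (limma, adjusted p below 0.05, largest terms in each direction). On the log2(FPKM + 1) scale the lower terms were -4.82 for TAS2R38, -3.54 for BIK, -3.28 for TAS2R10, -3.05 for OLIG2, -2.93 for CD8B, -2.75 for ASCL2, -2.67 for LOC284898, -2.64 for TAS2R42, -2.61 for FAM167A and -2.52 for RASSF6. TAS2R38, TAS2R10 and TAS2R42 are bitter taste receptors, the last 2 below 1 FPKM in all columns of the other lines, so their terms are values with no test, and RASSF6 is a RAS association domain protein. LOC284898 and FAM167A stood at 0.686 and 0.887 FPKM in NCI-H211 sgPOU2F3, 11.5 and 8.94 FPKM in sgNeg, and 0.298 and 2.50 FPKM in parental cells, so both were within 1 of the parental library. The higher terms were 7.30 for CYR61, 6.25 for KRT17, 5.85 for ANKRD1, 5.69 for FSTL1, 5.58 for HBEGF, 5.44 for TGFB2, 5.22 for TNNT2, 5.15 for BMP4, 5.11 for AJUBA and 5.10 for EDN1. TGFB2 reached 1 FPKM in only 1 column of the other lines and needed NCI-H211 to pass the filter, so its term is also a value with no test. TNNT2 is a troponin of heart muscle and EDN1 the vasoconstrictor endothelin. KRT17 was the gene of these with the largest difference in another line, 2.15 in NCI-H1048. The tests rest on 1 NCI-H211 value per arm, and none of the 20 terms passed without NCI-H526.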

How the results depend on the processing

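Within NCI-H211, a pseudocount of 5 left 297 lower and 387 higher genes, and parental cells as baseline gave 1311 higher genes. The other scalings and filters tried kept both counts within 1.5 times. Against parental cells 4 named genes turned direction, to 1.23 for SCD, 1.18 for SREBF1, 0.078 for CHAC1 and 0.072 for IL13RA1. Between lines, a pseudocount of 0.1 gave 13 lower and 42 higher calls, a filter of 4 columns 47 lower, and no filter 90 lower and 238 higher. Leaving out 1 other line gave 0 to 169 lower and 0 to 245 higher calls, none without NCI-H526. With it left out, 20 of the 20 named terms lost the threshold and kept their direction, and their adjusted p ranged up to 0.372 over the alternatives. Some of the 20 also lost the threshold with a pseudocount of 0.1, with no filter on low values or without NCI-H1048. The causes were not tested. No paired analysis was possible because the 2 guides share 1 column and sgNeg has 1 library. With 1 value per arm no replicate error is known, and values under about 0.05 FPKM rest on about 1 fragment.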
